A study of Homo sapiens with 6 samples.

Results

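The genes described here encode the kinases of the JNK and p38 stress pathways, in 3 tiers and with 1 kinase that p38 activates. They are the rows of the gene count table whose symbol is MAP3K5, MAP3K7, MAP2K3, MAP2K4, MAP2K6, MAP2K7, MAPK8, MAPK9, MAPK14 or MAPKAPK2, and all 10 were found among 16362 genes. RNA came from cells labelled MDA-MB-231, an established human triple-negative breast cancer line. The control group of 3 libraries had no agent, and the other group of 3 libraries was treated for 24 h with CTI-2, a compound known here by its code name only, at a dose that the labels do not give. The labels also do not say whether controls received a vehicle or whether the libraries of a group came from separate cultures, and the spread behind each p-value may therefore be technical. The title of the series names MAPK signalling as the route of interest, and the comparison asks whether the transcripts of its stress-activated branches differ after CTI-2.

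JNK and p38 are mitogen-activated protein kinases that respond to oxidative, osmotic, inflammatory and unfolded protein stress. A kinase of the MAP3K tier phosphorylates a dual-specificity kinase of the MAP2K tier, which in turn phosphorylates a threonine and a tyrosine in the activation loop of JNK or p38. Active JNK phosphorylates JUN and other transcription factors, and active p38 passes the signal to kinases such as MAPKAPK2. These steps act on protein, and transcript levels do not measure them.

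The coding sequence of the activation loop is shown for the 2 JNK genes, for MAPK14 and for MAPK12, because it is the part that assigns each gene to its branch and because MAPK12 was the only JNK or p38 gene that passed the test. The letters come from GENCODE 29 transcripts on GRCh38, in the transcript with the longest coding sequence of each gene. Each run has 57 bases, 5′ to 3′ on the coding strand, and the capitals, bases 25 to 33, mark the codons of threonine, a middle residue and tyrosine.
MAPK8: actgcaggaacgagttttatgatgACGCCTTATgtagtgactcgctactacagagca
MAPK9: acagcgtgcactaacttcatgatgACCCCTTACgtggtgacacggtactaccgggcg
MAPK14: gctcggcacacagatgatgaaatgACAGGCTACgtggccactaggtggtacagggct
MAPK12: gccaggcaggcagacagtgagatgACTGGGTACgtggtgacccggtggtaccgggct

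The middle codon encodes proline in both JNK genes and glycine in both p38 genes. The MAPK8 run lies in exon 5 of its transcript, at chr10:48420227-48420283 on the plus strand, and the MAPK9 run in exon 6, at chr5:180249010-180249066 on the minus strand. The MAPK14 run lies in exon 7, at chr6:36075866-36075922 on the plus strand, and the MAPK12 run in exon 7, at chr22:50256125-50256181 on the minus strand. The MAPK8 and MAPK9 runs differ at 16 of 57 bases and the MAPK14 and MAPK12 runs at 15, against 23 to 30 for a JNK and a p38 run. Over whole coding sequences MAPK8 and MAPK9 were identical at 75.7% of aligned bases, with a longest identical run of 29 bases. The corresponding values were 74.7% and 26 bases for MAP2K3 and MAP2K6, 67.3% and 20 bases for MAPK14 and MAPK12, and 62.8% and 14 bases for MAP2K4 and MAP2K7. Reads came from whole cDNA molecules on the Oxford Nanopore platform, but how the authors' counting treated reads that fit more than 1 gene is not stated by the labels.

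Library totals ran from 2208261 to 3929532 counts, so 3 counts correspond to 0.763 to 1.36 CPM (counts scaled to a library total of 1000000). The first principal component placed control 2 at -8.2, the other controls at -23.1 and CTI-2 at 13.7 to 25.1. The label of the line was met in part. CD44 stood at 131 to 188 CPM, LGALS1 at 1055 to 1249, CAV1 at 57.0 to 83.4 and MSN at 159 to 191 CPM, while ESR1 and CDH1 had at most 0.509 and 0.337 CPM. ERBB2 stood at 4.98 to 11.1 and EPCAM at 6.98 to 10.6 CPM, and PGR had no row. TGFBI fell from a mean of 264 to 115 CPM (log2 fold change -1.15, edgeR adjusted p = 0.00658). VIM, commonly described as abundant in this line, had only 14.5 to 18.9 CPM. AXL, also commonly described as present, had only 2.98 to 7.41 CPM. Its mean over all libraries, 4.68 CPM, lay below those of ERBB2 (9.30) and EPCAM (8.77), which are commonly described as absent or very low. CDKN2A, commonly described as deleted in it, stood at 254 to 612 CPM, and CDKN2B at 10.8 to 22.7 CPM. Of 8 markers of blood, endothelial, stromal and liver cells, PTPRC, CD3E and VWF had no row, CD68, ALB and ACTA2 stayed at or below 2.22 CPM, PECAM1 at or below 4.58 CPM, and PDGFRB stood at 12.2 to 23.4 CPM. The identity of the line was not tested.

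After CTI-2 none of these 10 kinase genes passed the test for a change in transcript level. Of the 10 genes 9 had enough counts to be tested and 0 passed the quasi-likelihood test of edgeR at an adjusted p of 0.05 (Benjamini-Hochberg over all 9848 tested genes), which 8.03% of those genes did. In bulk RNA, fewer cells that transcribe a gene and less RNA per cell cannot be told apart. None of the 9 had an unadjusted p under 0.05, against 23.9% of all tested genes. DESeq2 called 0 of the 6 members to which it gave an adjusted p (6.39% of all genes with one), and limma-voom called 0 of 9 (7.50% of all genes). The 9 log2 fold changes, given throughout as CTI-2 minus control, ran from -0.41 to 0.31 with a median of -0.13, beside a median of -0.01 over all tested genes. In 1 of the 9 genes, MAPKAPK2, the CPM did not overlap between the groups, which was so for 28.8% of all tested genes. The summed CPM of the 10 genes of controls 1 to 3 was 123, 103 and 139 and that of CTI-2 libraries 1 to 3 was 109, 112 and 119, so the CTI-2 values lay inside the control range.

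**Figure D1:**
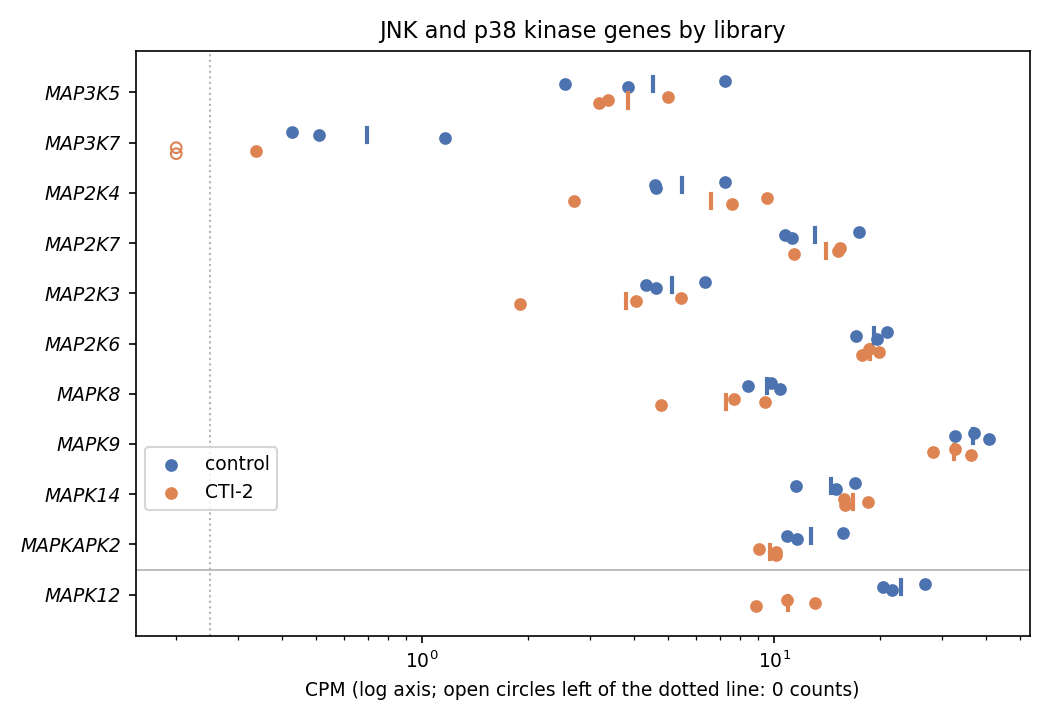
CPM on a log axis of the 10 JNK and p38 kinase genes, and of MAPK12 below the line, in each of 3 control and 3 CTI-2 libraries; points are libraries, vertical bars are group means (none where a library had 0 counts) and open circles are libraries with 0 counts. Above the line the groups overlap for every gene except MAPKAPK2 and the sparsely counted MAP3K7, and MAPK12 is lower in all 3 CTI-2 libraries.

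The genes spanned a wide range of levels. A nanopore read starts from 1 cDNA molecule, so a CPM does not grow with transcript length as it does for fragmented reads, and both the CPM and the CPM per 1000 bases of annotated transcript are given. By control mean CPM the order was MAPK9 (36.8), MAP2K6 (19.2), MAPK14 (14.5), MAP2K7 (13.1), MAPKAPK2 (12.7), MAPK8 (9.53), MAP2K4 (5.48), MAP2K3 (5.11), MAP3K5 (4.54) and MAP3K7 (0.697). The order per 1000 bases differed from it, with MAP2K6 before MAPK9, MAPKAPK2 before MAP2K7, and MAP2K3 before MAPK8 and MAP2K4. Per 1000 bases the control means were 12.7 for MAP2K6, 11.2 for MAPK9 and 10.5 for MAPK14, and the control ranges of neighbours overlapped among these 3 genes. MAPKAPK2 at 4.97 and MAP2K7 at 3.86 CPM per 1000 bases came next, with overlapping control ranges, below the 3 leading genes in every control. MAP2K3 followed at 2.52, its highest control meeting the lowest of MAP2K7 at 3.15, then MAPK8 at 1.69, MAP2K4 at 1.43 and MAP3K5 at 0.874, of which MAPK8 overlapped with MAP2K4 and MAP2K4 with MAP3K5. MAP3K7 was last at 0.150 CPM per 1000 bases, below every other gene in every control.

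At the top of the cascade were 2 genes with few reads. MAP3K5 (ENSG00000197442, chromosome 6, 136557047 to 136792518, minus strand; this and the following gene positions are from GENCODE 29 on GRCh38) encodes ASK1, a kinase that reduced thioredoxin holds inactive. In controls 1 to 3 its CPM was 3.85, 2.54 and 7.23, and in CTI-2 libraries 1 to 3, in the order used from here on, 3.17, 3.37 and 4.98. The CTI-2 values lay within the control range, and control 3 was the highest library. The log2 fold change was -0.14 (SE 0.40, 95% interval -0.96 to 0.68), and it became 0.29 without control 3. MAP3K7 (ENSG00000135341, chromosome 6, 90513573 to 90587045, minus strand) encodes TAK1, which relays cytokine and TGF-beta signals together with TAB proteins. It had 3, 2 and 1 counts in controls and 0, 1 and 0 counts after CTI-2, too few to be tested. A count of 0 allows up to 0.951 CPM in CTI-2 library 1 and 1.36 CPM in CTI-2 library 3. The ratio of pooled counts, CTI-2 over control, was 0.18 on 1 and 6 counts, with a 95% counting interval of 0.00386 to 1.46, so a difference was not detectable at this depth. Per 1000 bases the genes of the TAK1 partners stood higher, with control means from 0.652 CPM for TAB3 to 5.11 CPM for TAB1, and TAB2 between them.

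Next in the cascade come the genes of the kinases that activate JNK, MAP2K4 (MKK4, which can also act on p38) and MAP2K7 (MKK7, which acts on JNK). MAP2K4 (ENSG00000065559, chromosome 17, 12020824 to 12143830, plus strand) had 4.62, 4.58 and 7.23 CPM in controls against 7.61, 2.70 and 9.51 CPM with CTI-2. CTI-2 library 2 was the lowest of all 6 libraries and the other CTI-2 libraries were the highest, so the groups overlapped. The log2 fold change was 0.31 (SE 0.36, 95% interval -0.42 to 1.04). MAP2K7 (ENSG00000076984, chromosome 19, 7903843 to 7914478, plus strand) had 11.2, 10.7 and 17.4 CPM in controls against 11.4, 15.2 and 15.4 CPM with CTI-2. All CTI-2 values lay inside the control range, and the log2 fold change was 0.16 (SE 0.23, 95% interval -0.30 to 0.63). MAP2K4 took 29.3, 30.0 and 29.3% of the MAP2K4 and MAP2K7 counts in controls and 40.0, 15.1 and 38.2% after CTI-2. The mean share moved by 1.57 percentage points and the CTI-2 shares fell on both sides of the control shares (two-sided exact permutation p = 1; the smallest p that 3 against 3 allows is 0.1). Without CTI-2 library 1 the difference was -2.89 and without CTI-2 library 3 it was -1.98 percentage points.

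The p38 branch is activated by the products of MAP2K3 (MKK3) and MAP2K6 (MKK6), whose genes stood at 2.52 and 12.7 CPM per 1000 bases in controls. MAP2K3 (ENSG00000034152, chromosome 17, 21284672 to 21315240, plus strand) had 4.62, 4.33 and 6.38 CPM in controls against 1.90, 4.04 and 5.43 CPM with CTI-2, from 6 to 17 counts per library. CTI-2 library 1 was the lowest, and the log2 fold change was -0.41 (SE 0.39, 95% interval -1.20 to 0.37). MAP2K6 (ENSG00000108984, chromosome 17, 69414698 to 69553861, plus strand) had 19.6, 17.1 and 20.9 CPM in controls against 17.8, 19.9 and 18.6 CPM with CTI-2. Its CTI-2 values lay inside the control range, with a log2 fold change of 0.03 (SE 0.19, 95% interval -0.35 to 0.41) that took either sign over the alternatives (-0.02 to 0.07). MAP2K3 made up 19.0, 20.2 and 23.4% of the counts of this pair in controls and 9.68, 16.9 and 22.6% after CTI-2. The shares overlapped and their means differed by -4.50 percentage points (two-sided exact permutation p = 0.4). MAP2K6 thus held most of the counts of the pair in each of the 6 libraries.

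JNK itself is encoded by MAPK8 (JNK1), MAPK9 (JNK2) and MAPK10 (JNK3, found mainly in neurons). MAPK8 (ENSG00000107643, chromosome 10, 48306639 to 48439360, plus strand) had 10.4, 8.40 and 9.79 CPM in controls against 4.76, 9.44 and 7.70 CPM with CTI-2. CTI-2 library 1 was the lowest and CTI-2 library 2 lay inside the control range. The log2 fold change was -0.34 (SE 0.28, 95% interval -0.90 to 0.23). MAPK9 (ENSG00000050748, chromosome 5, 180233143 to 180292099, minus strand) had 40.8, 32.6 and 37.0 CPM in controls against 36.2, 28.3 and 32.6 CPM with CTI-2. The groups overlapped, and with 72 to 128 counts per library its log2 fold change of -0.13 had the smallest SE of the 9 tested genes (0.15, 95% interval -0.44 to 0.18). MAPK10, at 0 to 2 counts per library, was below the count filter. MAPK8 took 20.3, 20.5 and 20.9% of the MAPK8 and MAPK9 counts in controls and 11.6, 25.0 and 19.1% after CTI-2, so the JNK2 gene held most of the JNK counts in each library. The controls lay within 1 percentage point of each other and the CTI-2 libraries on both sides of them, with a difference of means of -1.99 percentage points (two-sided exact permutation p = 0.7), or 1.48 without CTI-2 library 1. Each of these shares rests on 89 to 161 counts, and the 95% exact binomial interval of the lowest was 6.66 to 18.5%. These intervals cover counting error only and not the spread between libraries. They also treat each amplified cDNA read as separate, since no molecular identifiers were available here.

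MAPK14 (ENSG00000112062, chromosome 6, 36027677 to 36111236, plus strand) encodes p38 alpha, the broadly expressed p38. It had 15.0, 11.5 and 17.0 CPM in controls against 15.9, 18.5 and 15.8 CPM with CTI-2. The groups overlapped through control 3, and the log2 fold change of 0.29 (SE 0.21, 95% interval -0.13 to 0.71) had the smallest adjusted p of the tested members (edgeR adjusted p = 0.416). Within each library MAPK14 took 22.7, 21.8 and 26.7% of the MAPK8, MAPK9 and MAPK14 counts in controls and 27.9, 32.9 and 28.2% after CTI-2. These shares did not overlap between the groups and differed by 5.97 percentage points on average (23.7% ± 2.58 against 29.7% ± 2.81, SD, n = 3 per group; exact permutation p = 0.1, two-sided and the smallest possible). Adjusted over the 4 shares tested the p was 0.4, and with 3 libraries a group this test could not have passed 0.05 for any difference. With each library left out in turn the difference was 4.35 to 7.44 percentage points. The controls' upper binomial bounds, 28.1 to 34.5%, lay above the lower bounds after CTI-2, 20.5 to 25.9%, so the intervals overlapped between the groups.

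MAPKAPK2 (ENSG00000162889, chromosome 1, 206684944 to 206734283, plus strand) encodes MK2, which p38 activates and which acts on the small heat shock protein HSP27 and on RNA-binding proteins that control cytokine messages. It had 11.6, 10.9 and 15.7 CPM in controls against 10.1, 10.1 and 9.06 CPM with CTI-2. All CTI-2 libraries lay below all controls, but by a margin of under 1 CPM between the nearest libraries. The log2 fold change was -0.30 (SE 0.24, 95% interval -0.78 to 0.17, edgeR adjusted p = 0.46) and the difference did not pass the test.

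**Figure D2:**
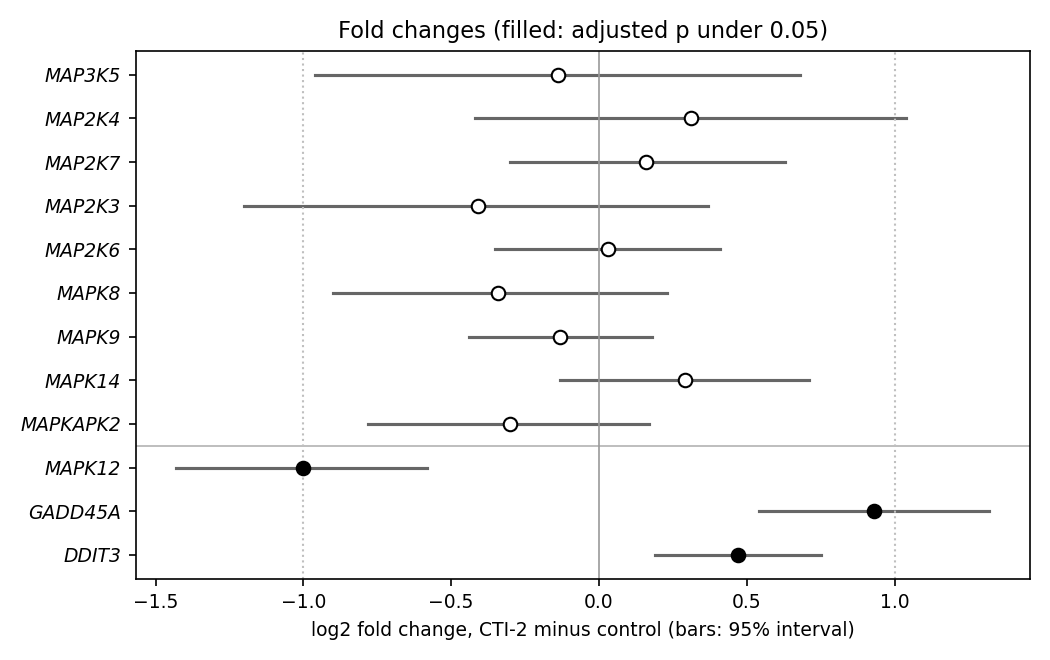
Log2 fold change, CTI-2 minus control, of the 9 tested kinase genes (above the line) and of the 3 other genes of the JNK and p38 pathway lists that passed the test; bars are 95% intervals from the edgeR fit, filled points have an adjusted p under 0.05 and dotted lines mark a 2-fold change. The interval of every kinase gene above the line includes 0. That of MAP2K3 also reaches past a 2-fold fall, and that of MAP2K4 past a 2-fold rise.

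The intervals show how precise these libraries were. For 7 of the 9 tested genes both a 2-fold rise and a 2-fold fall lay outside the 95% interval. A 2-fold fall lay inside it for MAP2K3 and a 2-fold rise for MAP2K4. The genes that passed over the whole table had a median absolute log2 fold change of 0.59, and a change of that size lay inside the interval of MAP3K5, MAP2K3, MAP2K4, MAP2K7, MAPK8, MAPK14 and MAPKAPK2. It lay outside it for MAPK9 and MAP2K6. Absence of a call is thus no measure of equality for most of these genes.

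The other p38 genes behaved differently from MAPK14 in 1 case. MAPK12, which encodes p38 gamma, a form known mainly from skeletal muscle, had 21.6, 20.4 and 26.8 CPM in controls against 8.88, 13.1 and 10.9 CPM with CTI-2. Each CTI-2 library lay below each control, and MAPK12 fell by 1.00 on the log2 scale (22.9 ± 3.43 to 11.0 ± 2.13 CPM, SD, n = 3 per group; SE 0.21, edgeR adjusted p = 0.00245). The call held in all 15 alternatives, each left-out library included, with adjusted p from 3.1e-04 to 0.0247. MAPK12 took 58.9, 64.0 and 61.2% of the MAPK12 and MAPK14 counts in controls and 35.9, 41.5 and 40.7% after CTI-2, a share chosen after its values were seen and not tested. It thus went from most of the counts of the pair in each control to the smaller part in each CTI-2 library. MAPK12 overlaps HDAC10, a deacetylase gene on the same strand, which had 11.9, 7.89 and 5.53 CPM in controls against 3.49, 2.36 and 0.906 CPM with CTI-2 and also fell (log2 fold change -1.77, edgeR adjusted p = 0.00397). The counts of MAPK12 are therefore uncertain, and the part of the overlap in its fall was not tested. MAPK11 (p38 beta) had 2 to 5 counts and MAPK13 (p38 delta) 7 to 15 counts per library, and neither was tested.

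**Figure D3:**
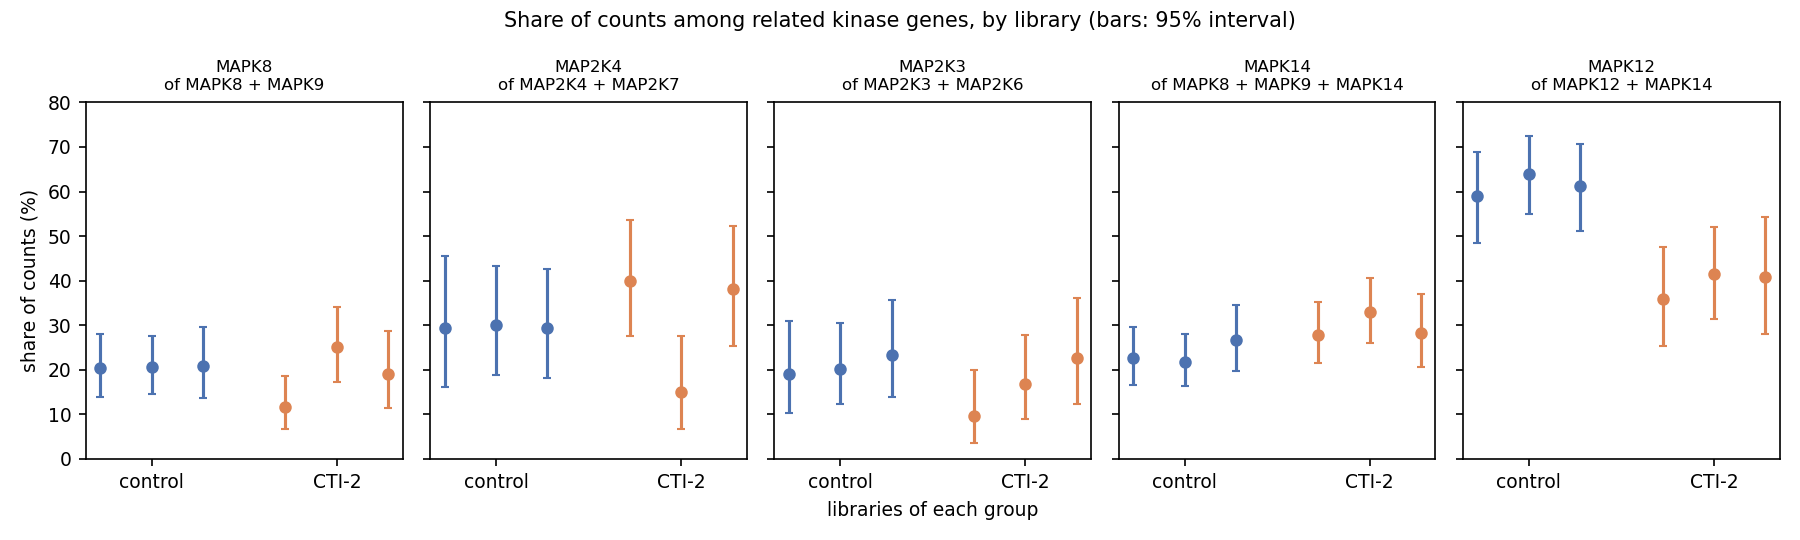
Share of counts in percent within each library for 5 groups of related kinase genes, controls left and CTI-2 libraries right in each panel, with 95% exact binomial intervals. The CTI-2 shares of MAPK8, MAP2K4 and MAP2K3 overlap the control shares, those of MAPK14 lie just above them and those of MAPK12 lie below them.

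Other genes of the pathway were taken from 7 lists of 75 genes in all, of which 58 were tested. Of these 2 rose and 1 fell (5.17%, beside 8.03% of all tested genes). An unadjusted p under 0.05 was found for 10 of the 58, beside 23.9% of all tested genes. The 58 log2 fold changes had a median of -0.07. Among 15 further MAP3K-tier genes 10 were tested and 0 passed in edgeR, with 2 at an unadjusted p under 0.05, while limma-voom called 0 of the 10 and DESeq2 0 of the 5 to which it gave an adjusted p. The members of highest CPM were MAP3K13, which encodes the leucine zipper kinase LZK (log2 fold change -0.08), and TAOK2 (24.5 ± 3.96 CPM in controls against 16.7 ± 1.27 CPM with CTI-2, SD, n = 3 per group; log2 fold change -0.48, edgeR adjusted p = 0.105).

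Of 20 genes of the MAP4K tier and of adaptors and activators 17 were tested and 1 rose (5.88%, beside 8.03% of all tested genes called). GADD45A encodes a stress-induced protein that binds and activates the MAP3K4 kinase. It had 11.9, 14.5 and 14.5 CPM in controls against 25.1, 26.6 and 24.5 CPM with CTI-2. The 3 CTI-2 libraries were all well above the controls, and the gene rose by 0.93 on the log2 scale (SE 0.19, edgeR adjusted p = 0.00189; 2.4e-04 to 0.0167 over the alternatives). Its relative GADD45B stood at 8.93 ± 1.86 and 8.16 ± 0.0785 CPM and the target of both proteins, MAP3K4, at 8.48 ± 0.731 and 7.32 ± 2.03 CPM (SD, n = 3 per group), neither past the test.

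Scaffolds, lower kinases and phosphatases gave no call, in short lists and beside 8.03% of all tested genes called. An unadjusted p under 0.05 in edgeR was found for 23.9% of all tested genes. Of 6 scaffold genes 4 were tested and 0 passed in edgeR, DESeq2 or limma-voom, with 1 at an unadjusted p under 0.05. That gene was the arrestin gene ARRB2, whose product gathers ASK1 and JNK3 (log2 fold change 0.44, edgeR adjusted p = 0.112), and MAPK8IP3, which encodes the scaffold JIP3, had -0.06. All 6 genes of further kinases that p38 activates were tested, and 0 passed in edgeR or limma-voom or at an unadjusted p under 0.05. DESeq2 called 0 of the 4 to which it gave an adjusted p. MKNK2, which encodes a kinase of the translation factor eIF4E, stood at 51.6 ± 5.82 and 46.9 ± 6.31 CPM, and MAPKAPK3, the close relative of MAPKAPK2, at 33.8 ± 3.06 and 38.3 ± 6.95 CPM (SD, n = 3 per group). Of 11 phosphatase genes listed for these pathways 8 were tested, and 0 passed in edgeR or limma-voom or at an unadjusted p under 0.05. Nor did any of the 6 with an adjusted p from DESeq2 pass. DUSP2 (73.7 ± 11.3 and 77.7 ± 8.72 CPM) and DUSP22 (16.3 ± 3.33 and 15.1 ± 2.28 CPM) had the highest levels.

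Of 13 substrate genes 12 were tested and 1 rose (8.33%, beside 8.03% of all tested genes called). Of the same 12 genes limma-voom called 1, and DESeq2 called 0 of the 8 to which it gave an adjusted p. DDIT3, which encodes the stress factor CHOP, a protein that p38 phosphorylates, had 41.6, 36.6 and 40.0 CPM in controls against 54.2, 55.6 and 47.5 CPM with CTI-2. The groups did not overlap and the gene rose by 0.47 on the log2 scale (SE 0.14, edgeR adjusted p = 0.0266). That call was lost in DESeq2 (adjusted p = 0.079), with library totals (adjusted p = 0.0655), with the transcript length trend removed (adjusted p = 0.0903) and, with adjusted p up to 0.128, when control 1, control 3 or either of CTI-2 libraries 1 and 2 was left out. DDIT3 overlaps MARS and MBD6 on the opposite strand, so its value is uncertain. JUN, the name-giving target of JNK, had 12.3, 13.5 and 9.36 CPM in controls against 10.1, 12.5 and 9.51 CPM with CTI-2, which overlapped. HSPB1, the gene of HSP27, is given because its product is the best-known MK2 target and was chosen after its values were seen. It had 701, 414 and 283 CPM in controls against 216, 236 and 258 CPM with CTI-2. The controls were far apart, all CTI-2 libraries lay below them, and the log2 fold change of -0.93 did not pass (edgeR adjusted p = 0.236). Without control 1 it was -0.54 with an adjusted p of 0.0397, and without control 3 it was -1.20 with an adjusted p of 0.0012.

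**Figure D4:**
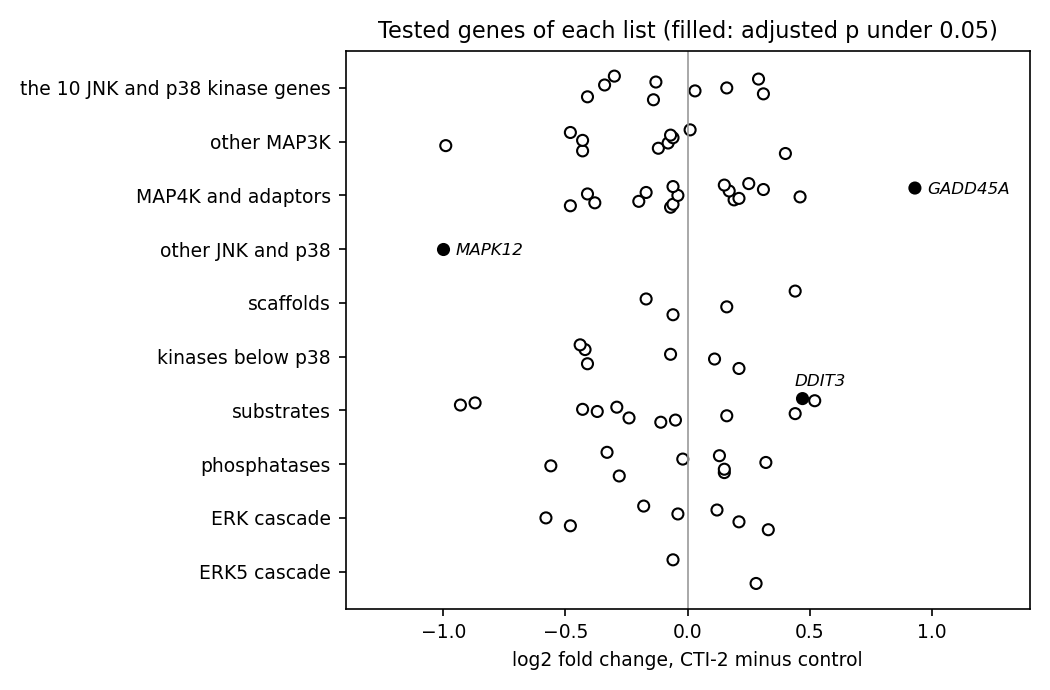
Log2 fold change, CTI-2 minus control, of each tested gene in the list of 10 kinase genes, in 7 lists of other JNK and p38 pathway genes and in the ERK and ERK5 cascades; each point is a gene, and filled points have an adjusted p under 0.05. The named points GADD45A, DDIT3 and MAPK12 are the only calls, and the other points lie between -0.99 and 0.52.

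The other MAPK cascades, which relay mainly growth factor signals, gave no call either. Over all tested genes 8.03% were called, a share at which lists this short can hold no call, and 23.9% had an unadjusted p under 0.05. Of 7 ERK cascade genes 0 passed in edgeR or limma-voom, 0 of the 6 with an adjusted p passed in DESeq2, and 1, ARAF, had an unadjusted p under 0.05 (log2 fold change 0.33, edgeR adjusted p = 0.0903, and 0.0468 with the GC content trend removed). Of the 2 ERK5 cascade genes 0 passed in edgeR or limma-voom or at an unadjusted p under 0.05, with 0.28 for MAP2K5 and -0.06 for MAPK7. The median log2 fold change was -0.04 in the ERK list and -0.13 in the 9 tested JNK and p38 kinase genes, and the difference between the cascades was not tested.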

How the data were processed

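Per the labels' protocols, total RNA was made into libraries with a cDNA-PCR kit for Oxford Nanopore sequencing. The submitters' processing notes name minimap2, and neither build, annotation, counter nor use of strand is stated in the sources used here. Values per gene were deposited as raw read counts and as CPM, and the authors' CPM equalled each count over its library total to within 1e-09. All 10 kinase genes had a deposited length equal to their GENCODE 29 span. They overlapped no other counted gene with a GENCODE 29 position, which 14408 of the 16362 genes had.

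Groups follow the agent named in the labels. The count table of 16362 genes went through filterByExpr (9848 genes kept), TMM scaling and a robust quasi-likelihood fit in edgeR 4.0.16 under R 4.3.3. P-values were corrected by the Benjamini-Hochberg method, with calls at 0.05. SE were derived from each fold change and its test statistic, and 95% intervals from these SE. Shares were compared by two-sided exact permutation tests, adjusted over 4 shares, with Clopper-Pearson intervals. Level per length used the median length of each gene's GENCODE 29 basic transcripts. The fit was tested on simulated data in which only well-counted genes were changed and every gene had the same relative spread between libraries. Genes with as few counts as MAP3K5, MAP2K3 or MAP2K4 were not among those changed. Libraries of 1 group differed beyond sampling noise in every pair. Chi-square over its degrees of freedom was 3.53 to 6.03 for pairs of controls and 1.68 to 2.26 for pairs of CTI-2 libraries.

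Alternatives were the size factors of DESeq2, unscaled library totals, all genes kept, a minimum of 20 counts in 3 libraries, limma-voom (limma 3.58.1), DESeq2 1.42.0, the replicate number as a block, offsets that removed a lowess trend (span 0.3) with transcript length or with GC content, and each library left out in turn. The genes, lists and tests were chosen with earlier results of these data known. Besides the 10 kinase genes, the rule for naming took each list's genes past the threshold, or else its 2 tested genes of highest CPM, and genes at an unadjusted p under 0.01. TAB1, TAB2, TAB3, TXN, MAP3K4, MAP3K6, GADD45B, MAPK10, MAPK11, MAPK13, JUN, HSPB1, ZFP36 and HDAC10 were named beyond it, and 1 gene that the rule names is not reported here.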

Additional observations from a re-analysis of the deposited data

How the results depend on the processing

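None of the 10 kinase genes passed under any of the 15 alternatives, 6 of which leave out a library; 6 to 10 of them had an adjusted p, depending on the alternative. Among all tested genes 791 passed, 498 with DESeq2 and 400 to 1610 when a library was left out (1610 without control 2, 400 without CTI-2 library 3). No pairing of the libraries by replicate number was seen. Same-numbered deviations correlated at -0.049, 0.007 and -0.124, and not every library correlated best with its own number. With 3 libraries a group these correlations cannot exclude a pairing. With the replicate block 942 genes passed, and MAPK12 (-0.99), GADD45A (0.94) and DDIT3 (0.47) kept their calls. Log2 fold changes near 0 changed sign. MAP2K6 went from 0.03 to -0.02 with library totals, the length trend or the GC trend removed, and to between -0.01 and 0.07 with a library left out. MAP3K5 ran from -0.44 to 0.29 with a library left out. With the length and GC trends removed MAPK8IP3 had 0.03 and 0.11, and with the GC trend removed MKNK2 had 0.04, DUSP22 0.01 and MAPK7 0.05. With a library left out MAPK8IP3 ran from -0.19 to 0.03, MKNK2 from -0.15 to 0.03, DUSP22 from -0.13 to 0.13 and MAPK7 from -0.17 to 0.06. The difference in the MAPK8 share ran from -5.20 to 1.48 and in the MAP2K4 share from -2.89 to 9.56 percentage points; the MAP2K3 and MAPK14 differences kept their sign. The cause of these changes was not tested. Depth limits MAP3K7 most, with at most 3 counts in a library.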

Other observations

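Some genes around ASK1, TAK1 and MK2 lay apart between the groups without passing the test, and were chosen after their values were seen. TXN, which encodes the thioredoxin that holds ASK1 inactive, had 2009, 2281 and 1806 CPM in controls and 2414, 2440 and 2456 CPM after CTI-2 (log2 fold change 0.31, edgeR adjusted p = 0.119). TAB1, a TAK1 partner gene, had 10.8, 14.0 and 12.8 CPM in controls and 17.8, 15.2 and 18.1 CPM after CTI-2 (0.46, edgeR adjusted p = 0.175). The groups overlapped for the partner genes TAB2 (-0.04) and TAB3 (-0.41). MAP3K6, which encodes the ASK1 relative ASK2, had 7.32, 4.84 and 5.11 CPM in controls and 3.49, 3.03 and 1.36 CPM after CTI-2 (-0.99, edgeR adjusted p = 0.108). ZFP36, the gene of the MK2-regulated RNA-binding protein tristetraprolin, had 6.16, 3.82 and 4.68 CPM in controls and 3.49, 1.69 and 2.26 CPM after CTI-2 (-0.87, edgeR adjusted p = 0.189). In TXN, TAB1, MAP3K6 and ZFP36 the groups did not overlap, as in 28.8% of all tested genes. Among the 58 tested genes of the other pathway lists the groups did not overlap in 5 higher and 6 lower genes.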
